A study of Mus musculus with 7 samples.

Results

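The genes described here are those of the mitotic spindle, the kinetochore and the machinery that drives cells into and out of mitosis, together with the remaining members of the kinesin (Kif) and NIMA-related kinase (Nek) families. Members are the genes whose symbols match a fixed pattern, which was drawn up with earlier results of these data known: centromere proteins (Cenp), kinesins, cyclins A and B, Aurora, Bub, Polo-like and Nek kinases, the Ska and Ndc80 complexes, Cdc20, Cdc25 and Cdca genes, Cdk1, condensin (Ncap) and a few single genes such as Top2a, Mki67, Tpx2 and Birc5. The pattern found 78 of the 7091 genes in the authors' deposited table. The table is limited to genes that the authors called at an adjusted p under 0.05, which were 36.5% of the 19407 genes they adjusted over, so each member had already been called on the libraries described here. The mouse annotation holds 121 protein-coding genes with such symbols. Of these, 64.5% were in the table, against 29.3% of all 22028 protein-coding genes, and the others are not analysed here.

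The samples were epidermis separated from telogen skin, the resting phase of the hair cycle, of 7 mice, with 1 mouse per bulk RNA library. The 4 mutant mice, called KA, had the genotype K14-CreERT;ABCA12-cKO, and the 3 controls were ABCA12-c/c without CreERT. Abca12 encodes a lipid transporter that keratinocytes need to build the skin barrier, and the comparison asks what its loss in adult skin does to the epidermis. CreERT is a recombinase that tamoxifen activates, and here the keratin 14 promoter directs it to basal keratinocytes. All mice, controls included, were injected with tamoxifen in corn oil at 8 weeks of age, on 3 successive days, with 1 mg for each 40 g they weighed, and sampled 2 weeks later. Deletion of Abca12 and presence of an active recombinase therefore cannot be told apart. KA 1 and KA 2 were males, KA 3 and KA 4 females, controls 1 and 3 females and control 2 a male. The strain is not given in the sources used here.

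Mitosis begins when cyclin B and Cdk1 phosphorylate their targets and chromosomes condense. Kinetochores, built on centromeres that carry the histone variant Cenpa, attach the chromosomes to spindle microtubules, and the spindle checkpoint holds back Cdc20 and the anaphase-promoting complex until all are attached. In epidermis, cells divide mainly in the basal layer and in growing hair follicles, and most messages of this machinery are made mainly in G2 and mitosis. In bulk RNA, more cells in these phases and more RNA per cell cannot be told apart, nor can fewer cells and less RNA per cell. Other kinesins carry vesicles, organelles and ciliary cargo in cells that do not divide.

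Reads in the listed genes came to between 9590718 and 12761458 per library, which is a part of each library and not its depth. Values below are normalised reads, which are counts divided by the authors' size factor of the library (0.888 to 1.25). Counts were fitted again with edgeR's quasi-likelihood test using these size factors, and log2 fold changes are KA over control with their standard error (SE). Adjusted p-values are Benjamini-Hochberg values over the 6749 listed genes with enough reads. Of these, 6746 passed again at 0.05 (100%), 52.7% higher and 47.3% lower in KA, so that passing says little on its own. With the adjustment widened to the 19407 genes, 87.7% passed, 46.1% higher and 41.6% lower. The median log2 fold change of all tested genes was 0.36, or 0.23 with TMM factors computed from the listed genes, a shift of 0.14 against which the members' changes stand. Levels are set side by side between genes only per kilobase of gene length.

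Promoters of genes expressed in G2 and mitosis are known for 2 short elements, the CHR (cell cycle genes homology region) and the CCAAT box. RefSeq promoter windows (GRCm38.p6, 250 bases before to 50 after the start) were found by symbol for 66 of the 78 members. The CHR was searched as TTTGAA and TTCGAA on both strands (TTCAAA is the reverse complement of the first) and the CCAAT box as CCAAT on both strands (ATTGG on the other). The sequences that follow are the 120 bases before the annotated start, ended earlier where an annotated exon of the gene begins, with matches in capitals. They show 5 of the members with large rises and, last, Kif21a, the member with the largest fall. These are examples and do not represent the members: all 5 had both motifs in their whole window. Both were in 56.4% of matched promoters of members higher in KA that belong to the mitotic classes described below.
Cdc20 (chr4:118437353-118437463, minus strand): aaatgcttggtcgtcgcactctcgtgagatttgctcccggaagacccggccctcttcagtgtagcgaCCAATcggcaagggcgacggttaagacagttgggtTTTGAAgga
Kif11 (chr19:37376262-37376381, plus strand): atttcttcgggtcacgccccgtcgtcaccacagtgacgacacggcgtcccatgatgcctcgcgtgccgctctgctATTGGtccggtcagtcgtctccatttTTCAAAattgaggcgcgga
Top2a (chr11:99024190-99024309, minus strand): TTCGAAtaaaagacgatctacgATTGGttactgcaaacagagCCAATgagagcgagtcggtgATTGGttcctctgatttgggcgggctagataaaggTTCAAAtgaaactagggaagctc
Ccnb2 (chr9:70421555-70421674, minus strand): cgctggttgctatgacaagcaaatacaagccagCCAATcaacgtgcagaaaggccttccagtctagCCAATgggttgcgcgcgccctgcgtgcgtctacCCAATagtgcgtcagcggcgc
Plk1 (chr7:122159315-122159434, plus strand): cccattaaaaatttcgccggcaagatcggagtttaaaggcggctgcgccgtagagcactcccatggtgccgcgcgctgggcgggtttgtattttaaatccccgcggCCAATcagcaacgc
Kif21a (chr15:91049952-91050071, minus strand): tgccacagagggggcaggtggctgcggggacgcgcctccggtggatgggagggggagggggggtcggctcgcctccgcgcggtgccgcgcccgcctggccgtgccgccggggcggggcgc

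In Cdc20 a CHR lay 18 bases before the start and a CCAAT box 53 bases before it. Kif11 had the same pair 19 and 45 bases before its start. Top2a had 4 CHR matches and 6 CCAAT boxes in its whole window. In Ccnb2 and Plk1 the printed stretch held CCAAT boxes alone. Ccnb2 had CHR matches farther out, 167 bases before the start and 5 bases after it, and Plk1 had one 31 bases after its start. Kif21a had neither motif in its window, which says only that these letters are not there. Of the 7 matched members that were lower in KA, 2 had a CCAAT box.

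A CHR was found in 40 of 55 matched promoters of members that were higher in KA and belong to the mitotic classes described below (72.7%, 95% Wilson interval 59.8 to 82.7). The share was 18.4% over all 20590 promoters of the reference table and 15.05% over listed genes. Among mitotic members higher by at least 1 on the log2 scale it was 34 of 42 (81.0%), and among those higher by less it was 6 of 13 (46.2%). Promoter sets were split by the authors' deposited log2 fold changes, over all 7091 listed genes and not only those tested again. Listed genes outside the member list that were higher by at least 1 had a CHR in 170 of 1031 promoters (16.5%). None of the 7 matched members that were lower in KA had one, which allows a share of up to 35.4% by the same interval. Kif26b was the only matched member outside the mitotic classes with a CHR, 9 bases before its start. CCAAT boxes were in 65.5% of the promoters of higher mitotic members and in 38.2% of all promoters. Both motifs together were in 56.4% and 7.32%. Of the 53 CHR matches in members, 38 began within 50 bases of the start and 20 after it. Mitotic kinesins had the motif most often by count, in 10 of 11 promoters. With only the 100 bases before the start searched, the CHR share of higher mitotic members was 30.9%, beside 5.65% of all promoters. These counts describe letters in a window and were not tested as an enrichment.

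**Figure D1:**
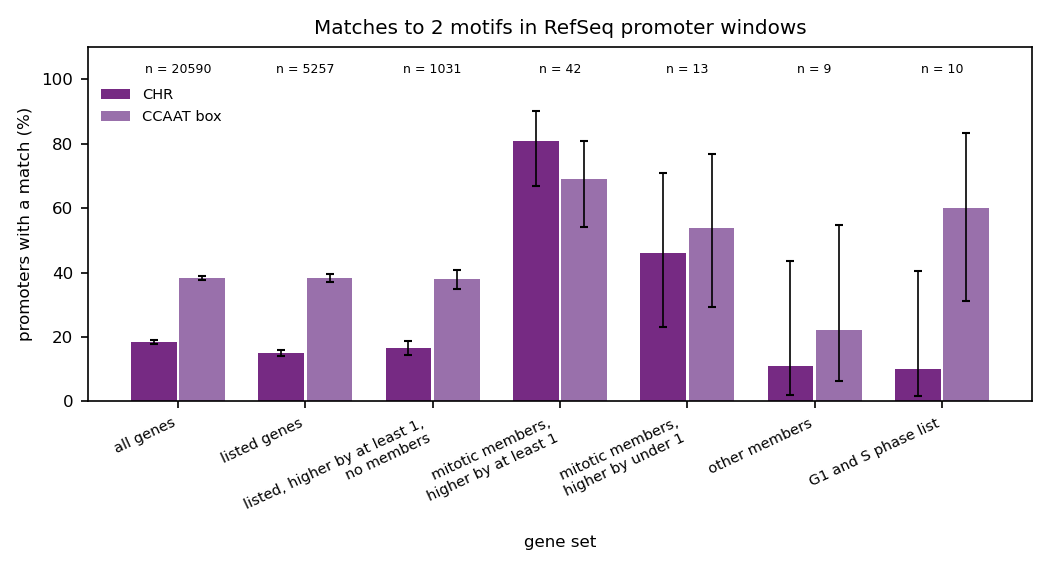
Share of RefSeq promoter windows (percent, vertical axis) with a CHR or a CCAAT box in 7 gene sets, with 95% Wilson intervals as bars and the number of promoters above. The CHR share is 81.0% in mitotic members higher by at least 1 and 16.5% in other listed genes with rises of that size.

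Of the 78 members, 69 were higher in KA and 9 lower, and all 78 passed the test again, against 100% of all tested genes. The split was 88.5% higher, beside 52.7% over all tested genes. Widening the adjustment to all 19407 genes left 63 higher and 7 lower, where 46.1% and 41.6% of all tested genes were left. The median log2 fold change of the members was 1.51. The 65 members in 9 mitotic classes had a median of 1.67 (1.53 with TMM factors), with 63 higher and 2 lower, Cdca7l and Cdc25a. Of these 65, 50 were higher by at least 1 on the log2 scale, a size that 20.5% of all tested genes reached. The other 13 members, mostly kinesins outside mitosis, had a median of -0.29, with 6 higher and 7 lower. The 4 KA values lay wholly above or below the 3 control values in 74 members (94.9%), beside 93.5% of all tested genes. The exceptions were Cenph, Cdc25b, Plk4 and Prc1. KA 3 stood apart from the other KA libraries in these genes, and without it the median of the mitotic classes was 1.84. The p-values rest on 3 and 4 separate animals.

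**Figure D2:**
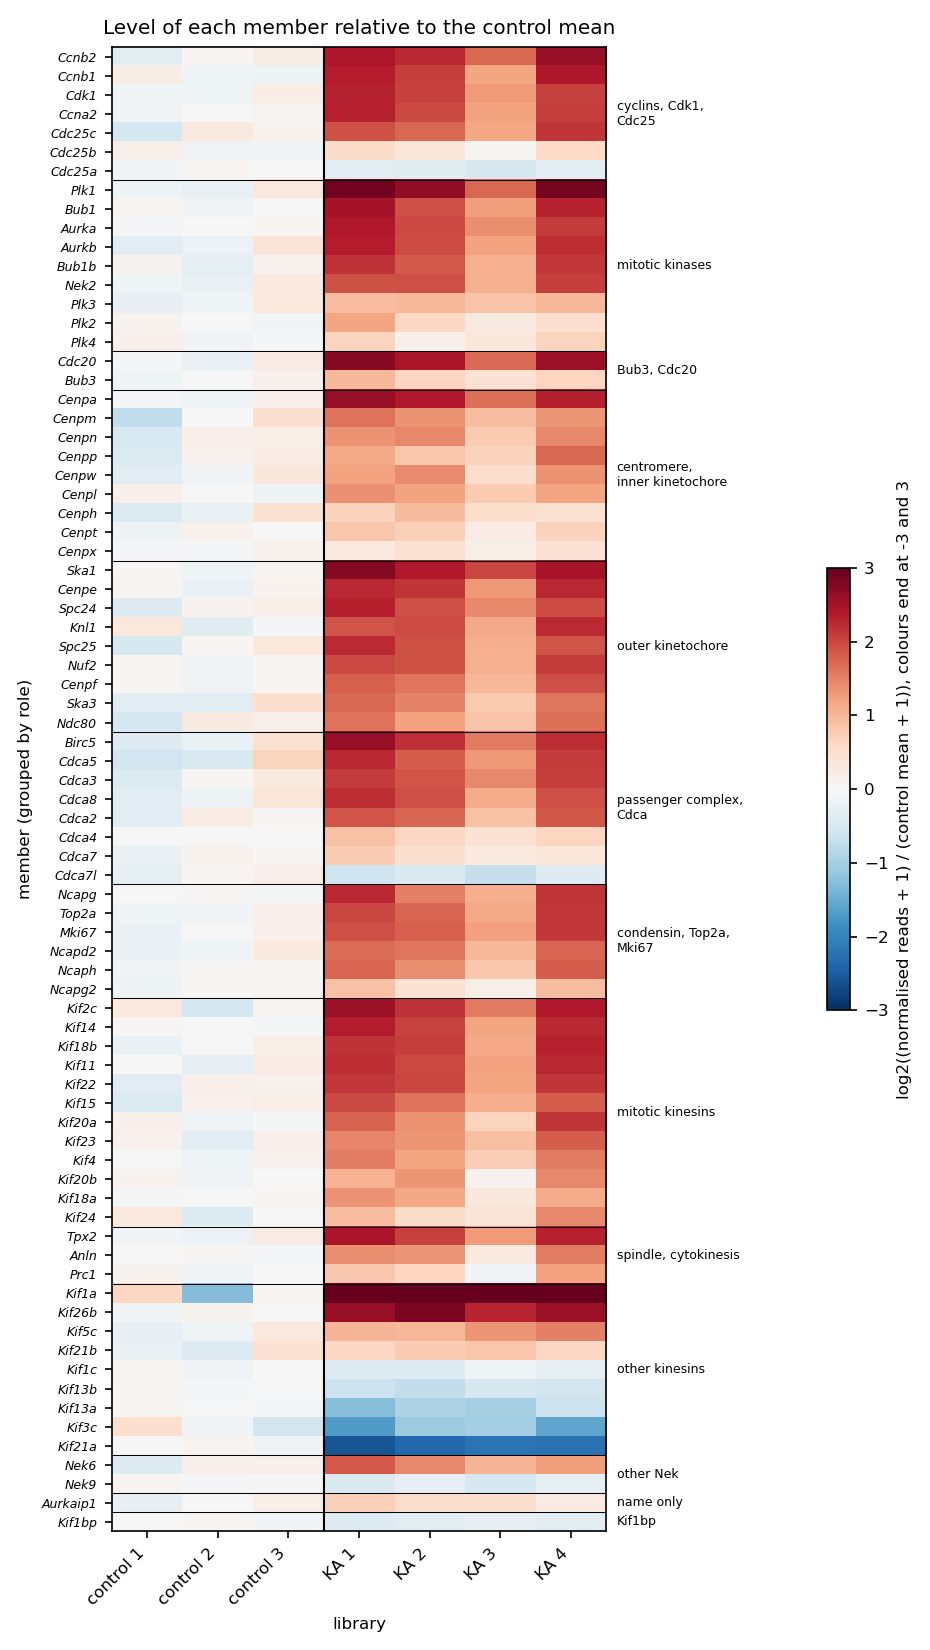
Each row is a member, grouped by role, and each column a library. Colour gives log2 of normalised reads over the control mean, with 1 added to both (red higher, blue lower). The mitotic classes are red in KA 1, 2 and 4 and paler in KA 3, and Kif21a is the bluest row.

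The engine of mitotic entry was higher throughout, apart from Cdc25a. Ccnb1, a B-type cyclin that activates Cdk1, had 300.1, 234 and 231 normalised reads in controls 1, 2 and 3 and 1315, 1083, 584 and 1378 in KA 1, 2, 3 and 4. Its log2 fold change was 2.10 ± 0.28 (SE, adjusted p = 1.42e-04). Ccnb2, the second B-type cyclin of this list, had 151, 197 and 221 in the controls and 1029, 917, 624 and 1174 in KA (2.30 ± 0.23, adjusted p = 2.54e-05). For both cyclins every KA library lay above every control, and KA 3 was the lowest KA library. Ccna2, a cyclin of S phase and G2, had 258, 284 and 299 in the controls and 1387, 1113, 649 and 1191 in KA (1.95 ± 0.23, adjusted p = 7.35e-05). Cdk1, the kinase these cyclins switch on, had 272, 269 and 348 in the controls and 1479.8, 1226, 716 and 1238 in KA, a 3.93-fold higher mean (1.97 ± 0.23, adjusted p = 7.36e-05). Neither gene had overlapping groups.

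The Cdc25 phosphatases, which remove the inhibitory phosphates from cyclin-dependent kinases, did not move together. Cdc25c averaged 69.5 ± 19.2 normalised reads (SD, n = 3) in controls and 242 ± 64.8 (SD, n = 4) in KA, and rose by 1.80 ± 0.28 on the log2 scale (adjusted p = 3.17e-04). Cdc25b had 1972, 1626 and 1656 in the controls and 2586, 2270.2, 1855 and 2640.1 in KA (0.42 ± 0.15, adjusted p = 0.0181). Its groups overlapped, since KA 3 lay below control 1, and it did not pass with TMM factors or with the adjustment over all genes (0.0521). Cdc25a, which also acts at entry into S phase, fell from 651, 719 and 690.5 in the controls to 551, 533, 492 and 539.9 in KA (-0.38 ± 0.12, adjusted p = 0.0106), and every KA library was below every control. Cdc25b was the most abundant of the 3 per kilobase.

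All 9 kinases placed in the mitotic kinase class were higher, by 0.48 to 2.62 on the log2 scale. Nek6 and Nek9, which also act in mitosis, were kept outside this class and are given below, Nek9 being lower. Plk1, which acts from centrosome maturation to cytokinesis, had the largest rise of the mitotic members. It had 116, 110.3 and 159 in the controls and 964, 820.2, 428 and 946 in KA (2.62 ± 0.29, adjusted p = 5.57e-05), a 6.16-fold higher mean. KA 3 held less than the other KA libraries but more than any control. The other Polo-like kinases moved less. Plk3, linked to stress responses, had 362, 389.7 and 533 in controls and 817, 855, 778 and 859.6 in KA (0.95 ± 0.15, adjusted p = 3.60e-04), and here KA 3 was close to the other KA libraries. Plk2, a kinase of centrioles and stress responses, had 706, 656 and 623 in controls and 1502, 1025, 792 and 942 in KA (0.69 ± 0.20, adjusted p = 0.00763), highest in KA 1. Plk4, the kinase of centriole duplication, had 257, 212 and 219 in controls and 362, 255, 292 and 368 in KA (0.48 ± 0.18, adjusted p = 0.0248), with KA 2 below control 1 and an adjusted p of 0.0712 over all genes.

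Aurka, the Aurora kinase of the spindle poles, had 144, 147 and 156 in the controls and 791, 593, 393 and 641 in KA (2.02 ± 0.22, adjusted p = 4.72e-05). Aurkb, the catalytic part of the chromosomal passenger complex, had 113, 125 and 186 in controls and 727, 553, 328 and 663 in KA (2.00 ± 0.29, adjusted p = 2.18e-04). Groups were apart for both. The checkpoint kinase Bub1 rose by 2.08 ± 0.29 and Bub1b by 1.87 ± 0.26 on the log2 scale. Nek2, which separates centrosomes before mitosis, averaged 162 ± 31.8 normalised reads (SD, n = 3) in controls and 561 ± 151 (SD, n = 4) in KA, and rose by 1.79 ± 0.25 on the log2 scale (adjusted p = 1.46e-04). Nek2 and Plk1 each overlap an exon of a gene on the opposite strand, and the strand setting of the authors' counting is not given in the sources used here. This holds for 22 members, Cdc20, Ccna2, Cdca8, Prc1, Nek6, Kif20a, Kif22 and Kif3c among them.

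Cdc20, the activator that turns the anaphase-promoting complex on mitotic cyclins, had 374, 332 and 463 in the controls and 2572, 2128, 1265 and 2295 in KA (2.40 ± 0.24, adjusted p = 3.17e-05). The lowest KA library, KA 3, held more than any control. Per kilobase it rose from 209 to 1106 normalised reads, from rank 9 of the 78 members in the controls to rank 2 in KA, behind the vesicle kinesin Kif1c. Bub3, which carries checkpoint proteins to kinetochores, had 1101, 1193 and 1342 in controls and 2380.0, 1909.7, 1650.2 and 1883 in KA (0.69 ± 0.14, adjusted p = 0.00153). Its groups were also apart, with a smaller difference than that of Cdc20.

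Centromere and inner kinetochore genes were all higher, 9 of 9, with a median of 1.16, the lowest of the 9 mitotic classes. Cenpa, the histone H3 variant that marks centromeres, stood at the top with 308, 289.7 and 356 in the controls and 1955, 1671, 996 and 1609 in KA (2.29 ± 0.22, adjusted p = 2.04e-05). All 4 KA libraries lay far above the controls. The other members of the class belong to the constitutive network that sits on Cenpa chromatin and rose by 0.34 to 1.33. Cenpm had the largest of these (1.33 ± 0.29, adjusted p = 0.00181), followed by Cenpn (1.29), Cenpp (1.18), Cenpw (1.16) and Cenpl (1.15). Cenpt, which links this network to the outer kinetochore, had 352, 425 and 393 in controls and 692, 637, 466 and 626 in KA (0.63 ± 0.16, adjusted p = 0.00402). Cenph had 118, 139 and 219 in controls and 258, 309, 229.8 and 217 in KA (0.67 ± 0.24, adjusted p = 0.0192), and KA 4 fell just below control 3. Cenpx, a histone-fold protein that also serves DNA repair, had 609.7, 614 and 685 in controls and 775, 875, 718 and 859.6 in KA (0.34 ± 0.13, adjusted p = 0.0218). Over all genes, Cenph and Cenpx had adjusted p-values of 0.0552 and 0.0628.

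The outer kinetochore, which binds microtubules, was higher in all 9 genes by at least 1.38 on the log2 scale, with a median of 1.85. The 4 subunits of the Ndc80 complex rose by 1.38 to 1.95: Spc24 by 1.95 ± 0.23, Spc25 by 1.85 ± 0.29, Nuf2 by 1.82 ± 0.25 and Ndc80 by 1.38 ± 0.26. Ndc80 itself had 77.6, 135 and 125 in the controls and 350.2, 259, 206 and 354 in KA (adjusted p = 9.16e-04), and Spc24 had 103, 146 and 156 in controls and 684, 522, 367 and 523 in KA (adjusted p = 7.00e-05). No KA library of either gene reached down to a control. Ska1, of the complex that tracks shrinking microtubule ends, had 30.3, 26.8 and 31.3 in controls and 205, 159, 121 and 167 in KA, the largest rise of the class (2.46 ± 0.26, adjusted p = 3.17e-05). Its partner Ska3 had 53.0, 52.6 and 95.4 in controls and 224, 189, 117 and 205 in KA (1.44 ± 0.30, adjusted p = 0.00145), with control 3 closest to the KA libraries. Cenpe, a kinesin motor of the kinetochore corona, had 142, 115 and 144 in controls and 645, 592, 332 and 646 in KA (2.05 ± 0.24, adjusted p = 6.41e-05). Knl1, the scaffold for checkpoint kinases, rose by 1.87 ± 0.29 and Cenpf, a large corona protein, by 1.62 ± 0.21. The difference between inner and outer kinetochore medians was not tested.

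**Figure D3:**
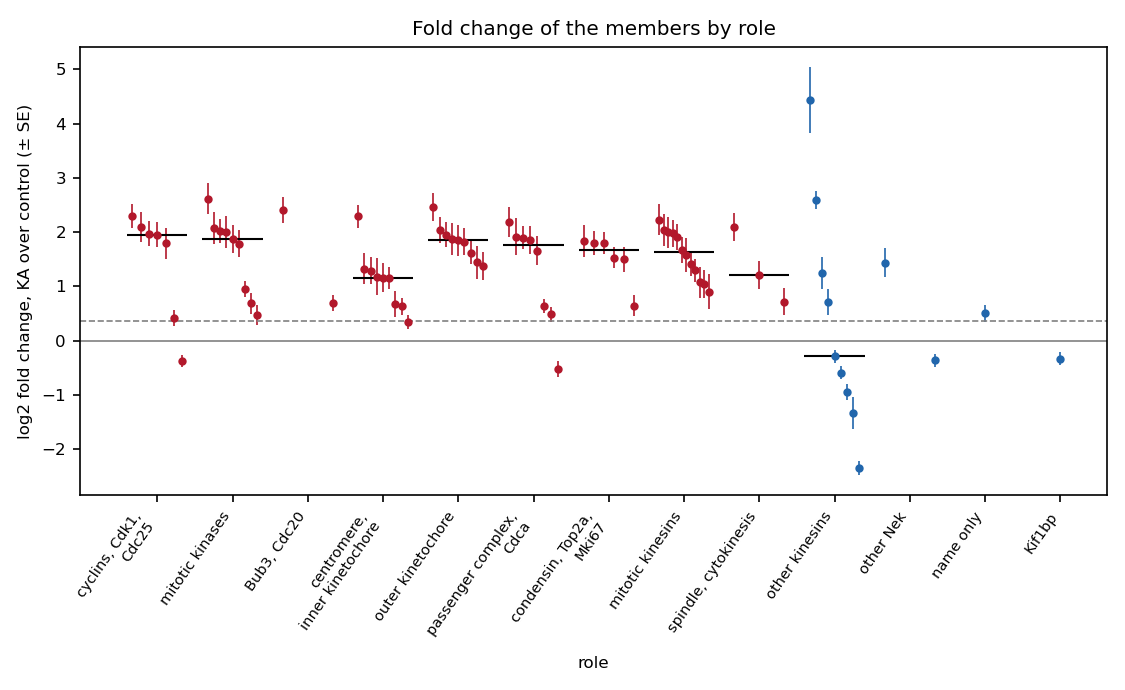
Log2 fold change of each member (points) with its standard error (bars), by role. Black lines are class medians, the dashed line is the median of all tested genes at 0.36, red marks the mitotic classes and blue the others, where values run from -2.34 to 4.43.

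Of the chromosomal passenger complex and the genes named Cdca for their association with cell division, 7 of 8 were higher. Birc5 (survivin), which brings the complex to centromeres, had 166, 189.7 and 297 in the controls and 1342, 991, 640.2 and 1009 in KA (2.19 ± 0.28, adjusted p = 1.08e-04). Cdca8 (borealin), a second targeting subunit, rose by 1.86 ± 0.26 (adjusted p = 1.99e-04). Mean levels in KA were 4.58 and 3.63 times those of the controls, and groups did not overlap. Cdca3, part of a ubiquitin ligase that triggers mitotic entry, had 227, 307 and 368 in controls and 1301, 1106, 815 and 1277 in KA (1.90 ± 0.21, adjusted p = 4.67e-05). Cdca5 (sororin), which protects cohesion between sister chromatids, rose by 1.92 ± 0.35 and Cdca2, a phosphatase-targeting subunit, by 1.66 ± 0.27. Cdca4 had 822, 837 and 815 in controls and 1508, 1259.6, 1108 and 1283 in KA (0.65 ± 0.13, adjusted p = 0.00124), with very even controls.

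Cdca7 and Cdca7l, related zinc-finger proteins of chromatin, went in opposite directions. Cdca7 had 1066, 1319.6 and 1269 in the controls and 2063, 1690.0, 1496 and 1571 in KA (0.49 ± 0.14, adjusted p = 0.00855). Cdca7l fell from 558, 713 and 784 in controls to 450.1, 507, 423 and 521 in KA (-0.53 ± 0.15, adjusted p = 0.00704). In each case the groups were apart, and in females alone, where 59.8% of tested genes passed, neither did. Cdca7l overlaps exons of another gene on the opposite strand.

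Genes that shape mitotic chromosomes were all higher, 6 of 6, with a median of 1.67. Top2a, the topoisomerase that untangles sister chromatids, had 876, 916 and 1101 in the controls and 3884, 3245, 2113 and 4222 in KA (1.80 ± 0.22, adjusted p = 9.34e-05). Mki67, the Ki-67 protein used as a stain for cycling cells, had 861, 997 and 1099 in controls and 3763, 3405, 2321 and 4268 in KA (1.80 ± 0.20, adjusted p = 4.49e-05). In both, KA 4 was highest and KA 3 lowest, and KA 3 still lay above every control. The condensin I subunit Ncapd2 had 612, 639 and 852 in controls and 2229.6, 2136, 1394 and 2345 in KA (1.53 ± 0.20, adjusted p = 1.03e-04). Its partners Ncapg and Ncaph rose by 1.84 ± 0.29 and 1.50 ± 0.23. The condensin II subunit Ncapg2 had 337, 391 and 402 in controls and 688, 518, 426 and 722 in KA (0.64 ± 0.19, adjusted p = 0.00882). KA 3 lay just above control 3 there, the narrowest gap of the class.

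All 12 mitotic kinesins rose, by 0.90 to 2.23 on the log2 scale. Kif11, the motor that pushes spindle poles apart, had 239, 199 and 287 in the controls and 1129, 951, 561 and 1170.1 in KA (1.98 ± 0.25, adjusted p = 1.18e-04). Kif2c, which dismantles microtubules at centromeres, had 111, 61.9 and 94.6 in controls and 538, 407, 263 and 472 in KA (2.23 ± 0.28, adjusted p = 9.19e-05), the largest rise of this class. Kif22 and Kif4 move chromosome arms. Kif22 had 160.0, 224 and 223 in controls and 880.4, 812, 457 and 893 in KA (1.91 ± 0.24, adjusted p = 1.01e-04), and Kif4 had 198, 180.4 and 217 in controls and 579.7, 451, 332 and 583 in KA (1.29 ± 0.21, adjusted p = 3.76e-04). Kif20a, needed for cytokinesis, had 129.7, 106 and 112 in controls and 397, 296, 184 and 519 in KA (1.59 ± 0.31, adjusted p = 0.00119), with a wide spread in KA. Kif24, a kinesin of the centriole, had the smallest rise, with 50.2, 29.9 and 40.9 in the controls and 78.1, 59.7, 53.3 and 111 in KA (0.90 ± 0.33, adjusted p = 0.0209). KA 3 lay just above control 1 for that gene, and over all genes its adjusted p was 0.0600. The others were Kif14 (2.04), Kif18b (2.00), Kif15 (1.67), Kif23 (1.41), Kif20b (1.07) and Kif18a (1.05). None of the 12 had overlapping groups, beside 93.5% of all tested genes whose groups were apart.

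The remaining mitotic class covers spindle assembly and cytokinesis. Tpx2, which seeds spindle microtubules and activates Aurka, had 249.9, 233 and 312 in the controls and 1449, 1106, 643 and 1325 in KA (2.09 ± 0.26, adjusted p = 1.05e-04). Anln (anillin), a scaffold of the contractile ring, had 480.0, 486.6 and 467.5 in controls and 1266, 1195, 587 and 1382 in KA (1.21 ± 0.25, adjusted p = 0.00161), with KA 3 far below the other KA libraries. Prc1, which bundles microtubules of the central spindle, had 408, 348 and 372 in controls and 663, 587, 355 and 869 in KA (0.72 ± 0.25, adjusted p = 0.0183). Its value in KA 3 fell inside the range of the controls, and its adjusted p was 0.0527 over all genes.

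KA 3 stood apart across the mitotic classes. It was the lowest KA library in 63 of 65 mitotic members (96.9%). Beside this stand 49.97% of all tested genes that were higher in KA and 56.3% of those higher by at least 1. In the gene lists described below, KA 3 was likewise lowest in 92.9% of listed G1 and S phase genes. It was so in 91.7% of other kinetochore genes, 85.7% of other spindle genes and 77.8% of cohesin genes. Shares were 60.0% of CDK inhibitors, 54.5% of regulators of G2 and mitosis and 44.4% of the anaphase-promoting complex list. Of the KA libraries, KA 1 was the highest in 32 of the 65 and KA 4 in 29. Summed over the 65 members, normalised reads came to 18839, 19389 and 21744 in controls 1 to 3 and to 59324, 50568, 34306 and 57441 in KA 1 to 4. These are 2.97, 2.53, 1.72 and 2.87 times the control mean. KA 3 thus lay above every control and below every other KA library. Leaving out each library in turn gave medians of 1.57 to 1.84 for the mitotic classes, the highest without KA 3. Animal numbers in the sample titles fall into a lower run (controls 1 and 2, KA 1 and 2) and a higher run (control 3, KA 3 and 4), whose meaning is not given. The median was 1.92 in the lower run alone, and 1.33 in the higher run alone, where the single control is assumed to vary like the KA libraries. In that higher run 41 members were called higher and 3 lower, and 32.8% of tested genes passed. The median was 1.56 in females alone. In the marker lists, KA 3 had the highest suprabasal sum (413241, other KA libraries 276614 to 348939, controls 112541 to 146230) and the highest bulge sum of the KA libraries (71737, others 19607 to 40991). Its basal keratinocyte sum was the lowest of the KA libraries (610466, others 735011 to 743660, controls 387857 to 424737). KA 3 was the lowest KA library in 3 of the 4 listed basal markers. Of 6 suprabasal markers 4 were listed: Krt1, which makes up most of that sum, and Ivl were higher in KA, and Sbsn and Dsg1a lower. The bulge sum was nearly all Krt15. The part of these markers in the level of the mitotic genes was not tested.

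**Figure D4:**
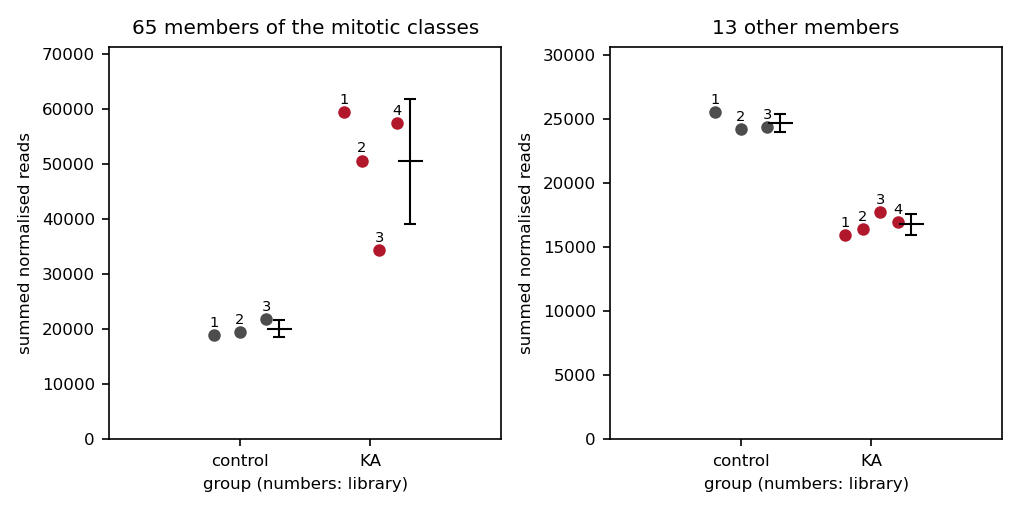
Summed normalised reads per library over the 65 members of the mitotic classes (left) and the 13 other members (right), with group means ± SD as black marks and library numbers beside the points. On the left KA 3, at 34306, lies between the controls and the other KA libraries, and on the right all KA libraries lie below all controls. Most reads on the right are those of Kif1c and Kif21a, and 6 of the 13 members were higher in KA.

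Kinesins outside mitosis went both ways. Of 9 such kinesins, 5 fell and 4 rose, and the 4 with the highest levels per kilobase of gene length in both groups (Kif1c, Kif21a, Kif13a and Kif13b) were among those that fell. Kif21a, a kinesin that limits microtubule growth at the cell cortex, had 6720.0, 7102 and 6194 normalised reads in controls 1, 2 and 3 and 1108, 1308, 1429.8 and 1415 in KA 1, 2, 3 and 4. The control mean was 5.07 times the KA mean (-2.34 ± 0.13, adjusted p = 9.01e-07), and all KA libraries were close together. It was the largest fall of any member. Kif13a and Kif13b, which carry membrane vesicles, also fell. Kif13a had 1698, 1594 and 1565 in controls and 663, 853, 817 and 1040.3 in KA (-0.94 ± 0.15, adjusted p = 3.27e-04), and Kif13b had 1489, 1378 and 1447 in controls and 929.8, 866, 1038 and 984 in KA (-0.59 ± 0.11, adjusted p = 9.92e-04). In both, every KA library lay under every control.

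Kif3c, a heterotrimeric type of kinesin found with ciliary and axonal cargo, had 217, 144 and 105 in the controls and 47.5, 72.1, 76.2 and 50.9 in KA (-1.33 ± 0.29, adjusted p = 0.00188). Its controls differed widely among themselves. Kif1c, a vesicle motor, had the highest level per kilobase of all members in both groups (1605 in controls, 1310.4 in KA). It had 12378, 10850.4 and 11803 in controls and 8921, 8985, 10606 and 9626 in KA (-0.29 ± 0.12, adjusted p = 0.0365), a small fall with KA 3 close to control 2. Over all genes its adjusted p was 0.105. Kif1bp, a protein that binds kinesins and is no motor itself, had 541, 567 and 511 in controls and 411, 430.4, 451 and 424 in KA (-0.33 ± 0.12, adjusted p = 0.0217), with 0.0625 over all genes.

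Among the non-mitotic kinesins that rose, Kif26b, a kinesin-related protein of cell adhesion and shape, had 123, 141 and 129 in the controls and 805, 928, 641 and 779.7 in KA (2.59 ± 0.17, adjusted p = 2.01e-06). Kif1a, the motor of synaptic vesicle precursors in neurons, had 2.84, 0 and 1.60 in the controls and 39.6, 25.9, 28.2 and 47.8 in KA. It rests on 5 reads in all controls and 136 in all KA libraries, a ratio of 23.3 after scaling (exact 95% interval 9.75 to 72.9, counting error only). Kif5c, a conventional kinesin heavy chain, had 21.8, 23.7 and 32.9 in controls and 54.4, 53.0, 66.8 and 76.8 in KA (1.25 ± 0.29, adjusted p = 0.00282). Kif21b, the relative of Kif21a, had 80.5, 70.1 and 126 in controls and 143, 157, 165 and 143 in KA (0.72 ± 0.24, adjusted p = 0.0141), so that this pair of related genes moved in opposite directions. Groups did not overlap for any of the 4, beside 93.5% of all tested genes whose groups were apart.

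Nek6 and Nek9 also act in mitosis, Nek9 upstream of Nek6, but were kept apart with the rest of the Nek family and are not among the 65 members of the mitotic classes. Nek6 rose from 38.8, 56.7 and 57.7 in the controls to 187, 139.7, 104 and 124 in KA (1.44 ± 0.27, adjusted p = 8.59e-04). Nek9 fell from 1345, 1233 and 1239.8 in controls to 943, 1080.5, 902 and 1037 in KA (-0.36 ± 0.12, adjusted p = 0.0131). Neither pair of groups overlapped. Across the Nek symbols of the table, Nek2 and Nek6 were thus higher and Nek9 lower, and across the 22 kinesin symbols, Kif1bp included, 16 were higher and 6 lower. Aurkaip1, matched by its name, is a mitochondrial protein despite its naming after Aurora kinase. It had 865, 1036 and 1179.7 in controls and 1681, 1480.4, 1431 and 1225 in KA (0.50 ± 0.15, adjusted p = 0.00883). Nearest to the threshold of the authors' deposited table were Kif1c, Cenpx and Kif1bp, with adjusted p-values of 0.0353, 0.0347 and 0.0343 there.

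**Figure D5:**
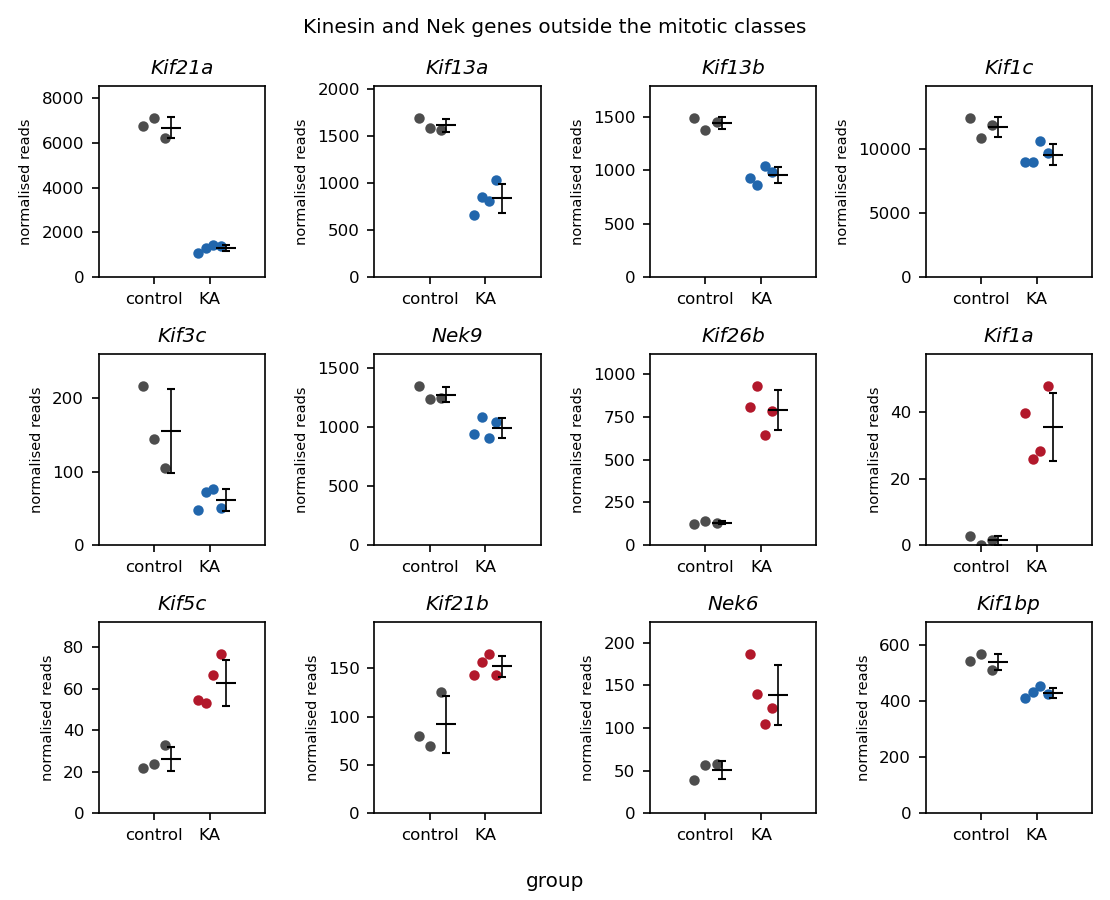
Normalised reads (vertical axes from 0) of 12 kinesin and Nek genes outside the mitotic classes in each library, controls in grey and KA in blue (lower) or red (higher), with means ± SD in black. Kif21a lies between 6194 and 7102 in the controls and between 1108 and 1430 in KA.

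The response of the members was compared between sexes with a genotype by sex term. Over all tested genes 3 passed (0.0445%) and 192 had an unadjusted p under 0.05 (2.84%). No member passed with edgeR's quasi-likelihood test, and 0 had an unadjusted p under 0.05 (DESeq2 1, limma-voom 0). The median male minus female difference in log2 fold change was 0.30, positive in 65 of 78 members. Neither value is given here for all tested genes. The median leaned on single animals: it was 0.04 without KA 3 and 0.76 without KA 4. Only 1 control was male. Both KA males belonged to the lower run of animal numbers and both KA females to the higher run. Among KA mice, sex and run therefore cannot be told apart.

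Around the members, further cell division genes were counted from lists by function, each listed gene having been called by the authors. Beside the counts that follow stand 29.3% of all protein-coding genes that were listed and 52.7% of all tested genes that were higher. Of 29 other spindle and cytokinesis genes 21 were listed, 20 higher and 1 lower, with a median of 1.50. Racgap1, of the central spindle, averaged 486.5 ± 78.4 normalised reads (SD, n = 3) in controls and 1567 ± 411 (SD, n = 4) in KA, and rose by 1.69 ± 0.23 on the log2 scale (adjusted p = 1.46e-04). Stmn1, which destabilises microtubules, rose by 0.79 ± 0.14. Numa1, which anchors dynein at spindle poles, was the exception (-0.34 ± 0.13, adjusted p = 0.0258, 0.0743 over all genes). Of 20 other kinetochore and checkpoint genes 12 were listed, all higher, with a median of 0.74. Incenp, the scaffold that joins Birc5, Cdca8 and Aurkb, rose by 1.50 ± 0.22, Pmf1, of the Mis12 complex, by 0.68 ± 0.16 and Zw10, which brings dynein to kinetochores, by 0.40 ± 0.14. For the anaphase-promoting complex and its partners, 9 of 20 were listed and all 9 were higher (median 0.62), among them Ube2s (0.93 ± 0.19), Fzr1 (0.56 ± 0.13) and Anapc11 (0.37 ± 0.13).

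Cohesin and related genes were mixed, 6 higher and 3 lower of 9 listed out of 18. The cohesin ring subunit Rad21 rose by 0.40 ± 0.15, while the loaders Nipbl (-0.45 ± 0.11) and Mau2 (-0.50 ± 0.15) and the subunit Stag2 (-0.43 ± 0.10) fell. Of 17 regulators of G2 and mitosis 11 were listed, 7 higher and 4 lower. Wee1, the kinase that holds Cdk1 inactive, averaged 2234 ± 488 normalised reads (SD, n = 3) in controls and 954 ± 365 (SD, n = 4) in KA, lower by a log2 fold change of -1.23 ± 0.26 (adjusted p = 0.00170). The pocket proteins Rb1 and Rbl2, which repress cell cycle genes, fell as well (-0.50 ± 0.17 and -0.55 ± 0.16), and Tfdp1, a partner of E2F factors, rose (0.64 ± 0.14). The transcription factors Foxm1 and Mybl2, which drive G2 and mitosis genes and were picked after their values were seen, rose by 1.59 ± 0.22 and 1.22 ± 0.25.

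Of 8 CDK inhibitors 5 were listed, 3 higher and 2 lower. Cdkn1a (p21) averaged 8126 ± 294 normalised reads (SD, n = 3) in controls and 5586 ± 970.1 (SD, n = 4) in KA, lower by a log2 fold change of -0.54 ± 0.15 (adjusted p = 0.00601). Cdkn1b (p27) fell also (-0.64 ± 0.14), and Cdkn2c rose (0.48 ± 0.12). The largest change of this list was the rise of Cdkn3, a phosphatase that acts on cyclin-dependent kinases (2.18 ± 0.32), a gene picked after its values were seen. For G1 and S phase genes 14 of 22 were listed, 12 higher and 2 lower, with a median of 0.69, beside 1.67 for the mitotic members. The D-type cyclins Ccnd2 (-1.40 ± 0.17) and Ccnd1 (-1.11 ± 0.21) were the ones that fell, while Cdk4, the kinase they activate (0.57 ± 0.13), and Rrm1, a subunit of ribonucleotide reductase (0.69 ± 0.18), rose. A CHR was in 1 of 10 matched promoters of this list, beside 18.4% of all promoters. In the lists above it was in 10 of 18 matched promoters of the other spindle and cytokinesis genes and 5 of 8 of the other kinetochore genes. The motif was in 4 of 9 of the anaphase-promoting complex list and 3 of 4 of the cohesin list. Among the regulators of G2 and mitosis it was in 3 of 8, and among the CDK inhibitors in 1 of 5.

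Markers of other cells moved as well. The 6 Langerhans and dendritic markers were all higher in KA, with sums of 23981 to 33397 in controls and 45921 to 67946 in KA. Of 8 T cell markers 4 were listed, 1 higher and 3 lower (1163 to 1500 against 635 to 732). For 8 myeloid and neutrophil markers, 4 were listed, 2 in each direction (262 to 400 against 392 to 640). None of the 6 fibroblast, 5 mast cell or 5 striated muscle markers was in the table, so those cells are not analysed here. Basal keratinocyte markers had sums of 387857 to 424737 in controls and 610466 to 743660 in KA. Of 6 such markers 4 were listed, and the sum follows Krt14 (1.58 ± 0.18) and Krt5 (0.50 ± 0.16), which rose, while Col17a1 (-1.05 ± 0.20) and Itgb4 (-0.49 ± 0.15) fell. Of 6 bulge markers 3 were listed, 1 higher and 2 lower, and the groups were apart in 1 of them. The sum of these 3 markers, nearly all Krt15, was 149955 to 197478 in controls and 19607 to 71737 in KA. Which of these cells carried the mitotic messages was not tested.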

How the data were processed

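Epidermal RNA of 7 mice was read from 1 table of the whole series. It holds raw counts per gene and, per the file headers, normalised reads, a signal that the authors made by dividing counts by 1 size factor per library. It also holds the authors' mean signal, log2 fold changes with their standard errors, test score and p-values before and after adjustment, per the file headers. Fastp, STAR 2.6.1d, featureCounts 1.5.0-p3, DESeq2 1.40.2 and mm10 are named in the submitters' processing notes.

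Deposited counts were refitted with edgeR 4.0.16 (glmQLFit and glmQLFTest, robust) in R 4.3.3, scaled by the authors' size factors, since factors from a table of called genes alone would rest on changed genes. filterByExpr by group left out 342 of 7091 genes. Low genes had no pseudocount beyond edgeR's own. Each SE was taken as the log2 fold change divided by the root of its F statistic. Code was tested on simulated data. All calls are conditional on the authors' selection on the same libraries and are not independent evidence. No replicate pair agreed within sampling noise.

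Symbols and overlaps were compared with GENCODE M21 (GRCm38): all 78 members were found, 76 with identical start and end. Promoters are RefSeq's. Alternatives were TMM and RLE factors, other filters, DESeq2 1.42.0, limma-voom 3.58.1, covariates, blocks, each library left out, subsets of libraries, 2 thresholds, and shorter promoter windows. Members and lists were chosen with earlier results of these data known. Genes were named by rule: per class up to 4 with the highest level per kilobase, the largest and smallest fold change and every member that fell, and per list up to 3 with the most reads and up to 3 against its majority. Other members named with values complete their class.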

Additional observations from a re-analysis of the deposited data

How the results depend on the processing

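No member changed direction in any of the 23 alternatives. The wider adjustment and the stricter threshold reused the main fold changes, so direction could not change there. Over all tested genes the number higher also hardly moved, at 3556 in the main fit and in females alone and 3555 in the lower run alone. The share of all tested genes that kept direction or call throughout was not counted. Of the 78 members, 43 kept their call in all 23 alternatives. The other 35 lost it in at least 1, of which 34 did so in the higher run of animal numbers alone (1 control, 2 KA), an alternative added after seeing the data with 1 residual degree of freedom, and 19 in females alone (2 controls, 2 KA). In that higher run 2215 tested genes passed (1094 higher, 1121 lower), with 41 members higher and 3 lower. In females alone 4037 tested genes passed (2145 higher, 1892 lower) and 4 members were lower. The lower run of animal numbers alone also gave 4 lower members, where 2881 of all tested genes were called lower. An adjusted p under 0.01 gave 5 lower members, where 2380 of all tested genes were called lower. In the main fit these counts were 9 and 3192. Members higher ranged from 62 to 69 over the libraries left out, with the fewest without control 2. Tested genes called higher ranged from 3150 to 3509 there, with the fewest without control 1. The genotype by sex term gave 6 genes with DESeq2 and 0 with limma-voom, and 0 to 9 with a library left out; without control 2, the only male control, it could not be fitted. Promoter shares depended on the window. With the 100 bases before the start alone, a CHR was in 30.9% and both motifs in 18.2% of higher mitotic members. Over all promoters these shares were 5.65% and 1.05%. The window of 50 bases before to 50 after was chosen after seeing the data. There a CHR was in 61.8% of higher mitotic members, CCAAT boxes in 45.5% and both motifs in 34.5%. Over all promoters these shares were 4.59%, 13.8% and 0.826%.

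Libraries with the same sample number did not deviate together (correlations of -0.20, 0.15 and -0.09), so the numbers were not taken as pairs. With the sample number as a replicate block, 6106 genes passed, with 65 members higher and 7 lower. No paired analysis by sample number was possible for the sex term because that block left 0 residual degrees of freedom. The letter in the sample titles as a block, added after seeing the data, left 1, and 4 genes passed, 0 of them members. The table holds called genes only, so depth limits, and members that were not called, could not be judged.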

Other observations

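Genes of the primary cilium, an organelle that is taken apart before mitosis, were counted beside the members because centrioles serve both. Of 31 such genes 10 were listed, close to the 29.3% of all protein-coding genes that were, and all 10 were lower in KA, with a median log2 fold change of -0.69, where 47.3% of all tested genes were lower. Ift172, a subunit of ciliary transport particles, fell from 812 ± 93.3 (SD, n = 3) to 514 ± 71.9 (SD, n = 4) normalised reads (-0.66 ± 0.15, adjusted p = 0.00201). Arl13b, a small GTPase of the ciliary membrane, had a log2 fold change of -0.57 ± 0.14, and Ift20, of the same particles, one of -0.30 ± 0.12 (adjusted p = 0.0251, 0.0723 over all genes). KA 3 was the lowest KA library in 1 of the 10, beside 10.2% of all tested genes that were lower in KA. A CHR was in 1 of 9 matched promoters of these genes, beside 18.4% of all promoters.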
